A study of Mus musculus with 3 samples.

Results

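Connexin and pannexin genes were described in the dentate gyrus, the region of the hippocampal formation that holds the granule cell layer. The 8 genes were chosen by symbol, as Gja1, Gjb1, Gjb2, Gjb6, Gjc3, Gjd2, Panx1 and Panx2, among 33101 gene names with a value. They comprised 6 connexin and 2 pannexin genes of a mouse family of 23, and each symbol had a single entry in the table. The tissue was dissected from male C57Black6 mice aged 8 to 10 weeks and sequenced as polyadenylated RNA. The 3 libraries formed 1 wild-type group with no treatment and no second condition, so genes could only be set beside each other within the tissue. In the deposited table, each gene had a single FPKM value that stands for the group, entered beside 1 listed transcript. Whether a value belongs to the gene or to that transcript alone is not known, which limits every level, ratio and share below for genes with several forms. GENCODE M21 holds 8 transcripts of Gja1, 4 each of Gjb6 and Panx1, 3 each of Panx2 and Gjb1, 2 of Gjc3 and 1 each of Gjb2 and Gjd2. FPKM is the number of sequenced fragments scaled by transcript length and by the size of the library, which allows levels of genes of different length to be set side by side. No value carried a replicate error, the depth behind each was unknown, and no test against replicate spread was possible. Whether genes that follow each other in level differ beyond their spread was therefore not tested.

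Connexins are membrane proteins that assemble into hemichannels, and hemichannels of adjoining cells dock to form gap junctions, through which ions and small molecules pass. In brain, astrocytes are coupled by Cx43 and Cx30, the connexin proteins of Gja1 and Gjb6, oligodendrocytes express the products of Gjb1 and Gjc3 among others, and electrical synapses between neurons are built largely from the product of Gjd2. Pannexins resemble connexins in membrane topology but act mainly as channels within a single membrane, the product of Panx1 being known for ATP release.

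Transcripts of the astrocyte connexins dominated the family. Gja1 was highest at 94.4 FPKM, followed by Gjb6 at 54.7 FPKM, the pannexin gene Panx2 at 44.0 FPKM, Panx1 at 5.64 FPKM, Gjc3 at 4.16 FPKM, Gjb2 at 1.88 FPKM, Gjd2 at 0.917 FPKM and Gjb1 at 0.198 FPKM. The levels thus spanned a range of 477-fold from Gjb1 to Gja1. The lower end of this range rested on a value under 1 FPKM, so its width depends strongly on that value. Of the 8 genes, 6 reached 1 FPKM, against 39.6% of all gene names and 56.4% of protein-coding names. Only Gja1, Gjb6 and Panx2 of the 8 reached 10 FPKM, a level reached by 21.1% of all names and 30.8% of protein-coding names. The median of the 8 was 4.90 FPKM, and that of all protein-coding names was 2.46 FPKM. Placed among protein-coding names, Gja1 lay above 97.2%, Gjb6 above 94.1% and Panx2 above 92.4% of them. Panx1 and Gjc3 lay above 59.5% and 55.4%, and Gjb2, Gjd2 and Gjb1 were below the middle of that distribution, above 47.7%, 43.1% and 35.8%. Among names at 0.1 FPKM or more, Panx1 and Gjc3 were below the middle as well, above 44.1% and 38.4%, and Gjb2, Gjd2 and Gjb1 lay above 26.9%, 19.1% and 5.34%, while Gja1, Gjb6 and Panx2 stayed above 95.6%, 91.1% and 88.7%.

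**Figure D1:**
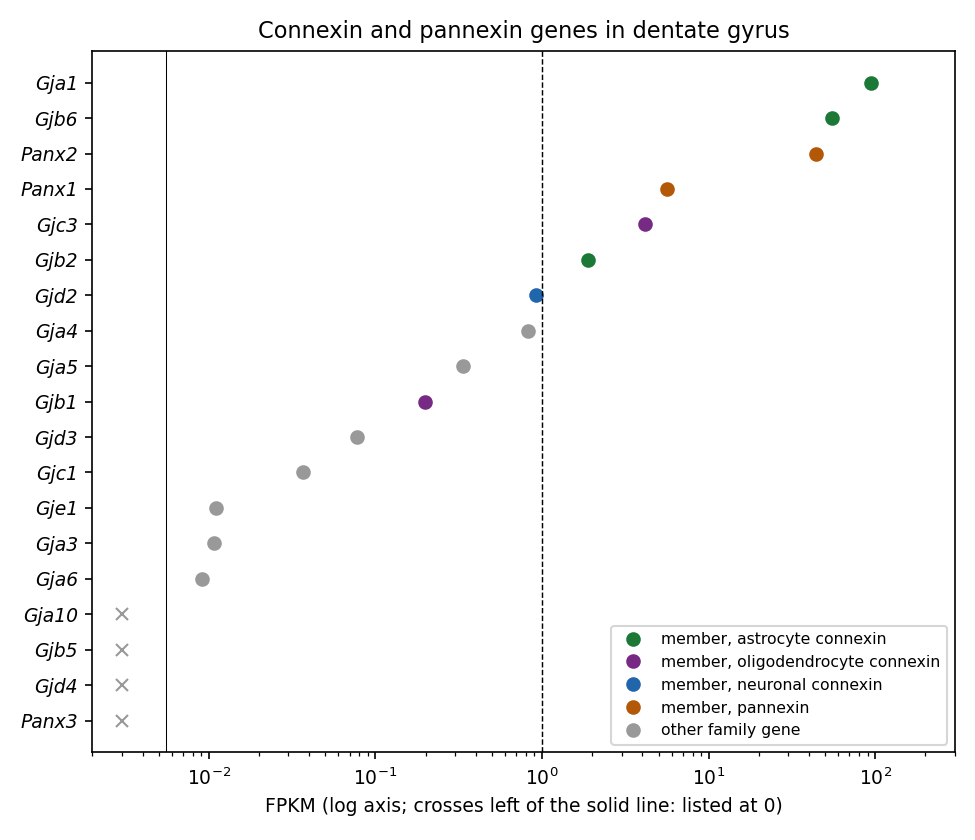
FPKM of 19 of the 23 connexin and pannexin genes (log axis), 1 point per gene. Of the 8 genes described, the connexin genes are coloured by the brain cell type assigned to them and the pannexin genes have their own colour. Other family genes are grey, the dashed line marks 1 FPKM and crosses mark genes listed at 0. Gja1, Gjb6 and Panx2 lie between 44.0 and 94.4 FPKM, and every plotted gene outside the 8 lies below 1 FPKM.

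The other 15 genes of the family were all below 1 FPKM. The highest was Gja4, a connexin gene of arterial endothelium, at 0.820 FPKM, close to Gjd2 and above Gjb1. Gja5, another vascular connexin gene, followed at 0.334 FPKM, also above Gjb1. A further 7 genes were above 0 but under 0.1 FPKM. They included Gjd3 at 0.0776, Gjc1 at 0.0369, Gje1 at 0.0111, Gja3 at 0.0107 and Gja6 at 0.00907 FPKM. The remaining 6, among them Gja10, Gjb5, Gjd4 and Panx3, were listed at 0, as were 40.4% of all names and 24.1% of protein-coding names. The endothelial marker Pecam1 was also listed at 0, and whether a listed 0 means that a transcript was absent was not tested. The median of the 15 was 0.0107 FPKM, or 0.0369 FPKM without those listed at 0, and their geometric mean, taken with 0.1 FPKM added and then subtracted, was 0.0441 FPKM. The 8 genes carried 99.3% of the summed FPKM of the family. They were chosen with earlier results of these data known, so this share is not independent of the choice. The choice of the 8 thus left out 2 genes, Gja4 and Gja5, with higher values than its own lowest gene.

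Among astrocyte connexins, Gja1 exceeded Gjb6 by 1.73-fold and Gjb2, the gene of Cx26, by 50.1-fold. Of the summed FPKM of the 20 connexin genes, 157.7 in all, Gja1 held 59.9% and Gjb6 held 34.7%. Gjb2 held 1.20%, so that the 3 astrocyte connexin genes together held 95.8%. This is a share of genes in bulk tissue, and what part of it came from astrocytes was not tested. In the mm9 build used by the table, the listed transcript of Gja1 spanned chr10:56097106-56110225 on the plus strand and corresponded to a protein-coding form of 3071 nt with 2 exons in GENCODE M21. That of Gjb6 spanned chr14:57742140-57752448 on the minus strand and was a protein-coding form of 2105 nt with 3 exons.

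**Figure D2:**
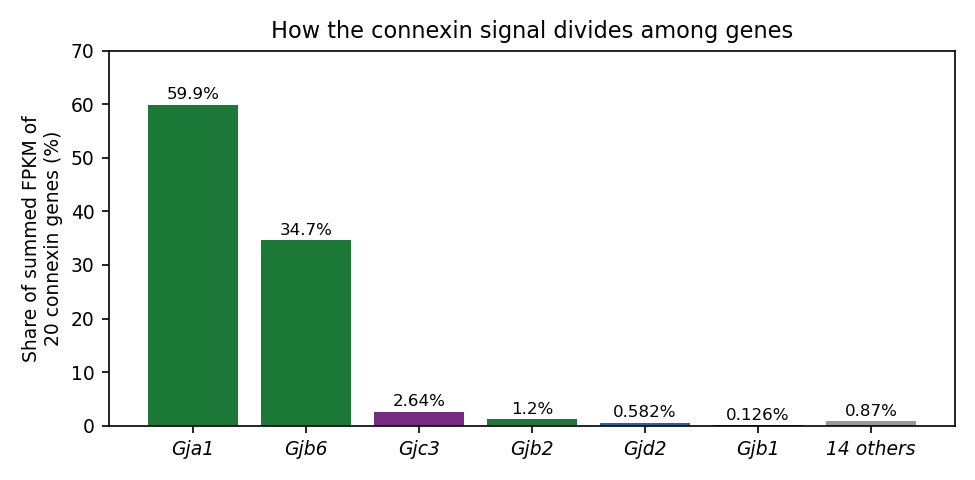
Share of the summed FPKM of the 20 mouse connexin genes (percent, linear axis from 0) held by each of the 6 connexin genes described and by the other 14 together. Gja1 and Gjb6 make up 94.6% of the sum, and the 14 others 0.870%.

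Gjb6 and Gjb2 are neighbours on chromosome 14, yet their levels differed by 29.0-fold, or by 19.3-fold with 1 FPKM added to both values. The listed transcript of Gjb2 spanned chr14:57717437-57723539 in mm9, on the same strand as Gjb6, with a gap of 18600 bases between them. Another connexin gene of the cluster, the lens connexin gene Gja3, lay a further 40569 bases away and was at 0.0107 FPKM. The 3 connexin genes share 1 orientation, and their values were successively lower in the order in which they follow each other along the strand. Within 300 kb of the Gjb6 start, the other protein-coding names were Gm4491, between Gjb6 and Gjb2, at 0.270 FPKM, Cryl1 at 10.8 FPKM, Zmym2 at 15.4 FPKM and Ift88, listed at 0. Gjb6 was the highest of them all.

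**Figure D3:**
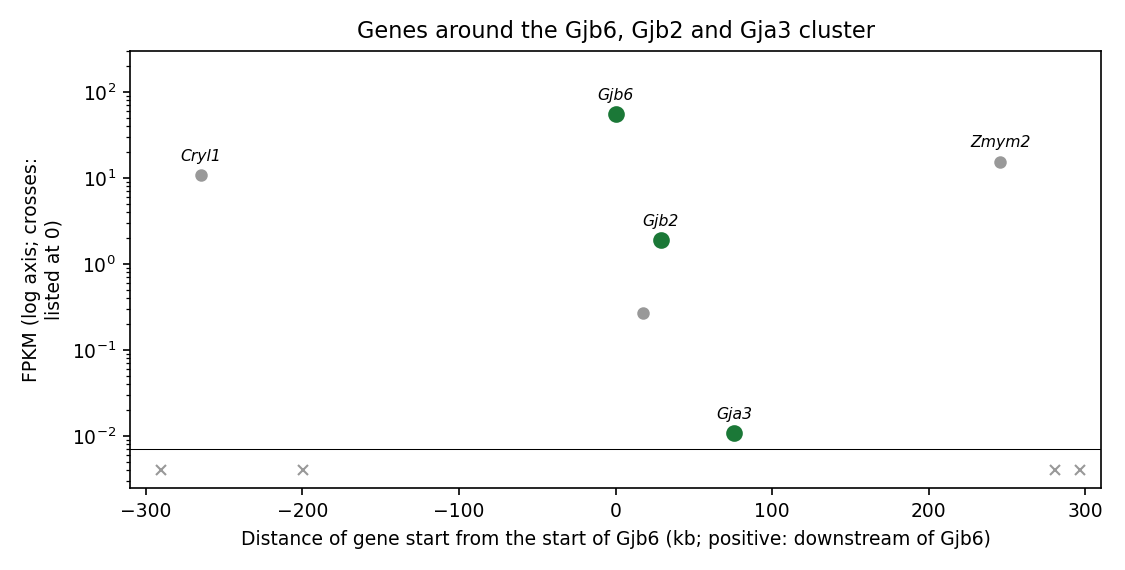
FPKM (log axis) of the genes whose start lies within 300 kb of the Gjb6 start, against the distance between starts in kilobases; green points are connexin genes, grey points other genes and crosses genes listed at 0. From left to right, Gjb6, Gjb2 and Gja3 stand at 54.7, 1.88 and 0.0107 FPKM.

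The sequences just before the starts of these genes differed in their content of CpG, the dinucleotide at which most DNA methylation in mammals occurs. They are shown because Gja1 and Gjb6 are the highest connexin genes and Gjb2 is the lower neighbour of Gjb6. RefSeq promoter sequences in build GRCm38.p6 were matched by symbol for 7 of the 8 genes, and 250 bases before the start are printed with CpG in capitals. The Gja1 stretch is chr10:56377050-56377299 on the plus strand, that of Gjb6 is chr14:57133612-57133861 and that of Gjb2 is chr14:57104703-57104952, both on the minus strand.
Gja1: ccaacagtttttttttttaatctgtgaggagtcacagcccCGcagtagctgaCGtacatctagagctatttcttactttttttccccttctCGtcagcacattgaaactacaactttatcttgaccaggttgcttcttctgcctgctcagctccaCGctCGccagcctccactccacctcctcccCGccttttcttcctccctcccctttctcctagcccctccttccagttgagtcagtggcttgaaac
Gjb6: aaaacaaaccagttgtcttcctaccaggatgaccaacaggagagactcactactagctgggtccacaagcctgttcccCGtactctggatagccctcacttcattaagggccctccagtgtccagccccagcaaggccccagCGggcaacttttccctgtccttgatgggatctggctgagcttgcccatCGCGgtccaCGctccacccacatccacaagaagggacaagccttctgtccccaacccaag
Gjb2: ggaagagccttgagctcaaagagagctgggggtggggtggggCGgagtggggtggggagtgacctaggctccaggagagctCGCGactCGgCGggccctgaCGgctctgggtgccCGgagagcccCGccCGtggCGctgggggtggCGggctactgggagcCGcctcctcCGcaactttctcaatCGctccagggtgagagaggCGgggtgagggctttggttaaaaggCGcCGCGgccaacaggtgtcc

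The Gja1 and Gjb6 stretches held 6 and 5 CpG, against a median of 6 over 32851 RefSeq promoter windows of the same length, while the Gjb2 stretch held 18. The window of Gjd2 held 33 CpG, more than 96.0% of all windows, that of Panx1 held 17 and that of Gjc3 held 3. For Gjb1, which has 4 RefSeq starts, the windows held between 1 and 10. Bases G and C together made up 50.0% of the Gja1 window, 56.8% of that of Gjb6, 69.2% of that of Gjb2 and 74.0% of that of Gjd2, with a median of 52.4% over all windows. The letters GGGCGG, a GC box, were found on either strand in the windows of Gjb2 and Gjd2 and in 1 of the 4 of Gjb1, and in 32.7% of all windows. The letters TATAAA were found in that same window of Gjb1 alone among those of the 7 genes, and in 12.4% of all windows. These are counts of letters in the reference sequence, and methylation was not measured in these libraries.

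The 2 connexin genes of oligodendrocytes among the 8 were well below the astrocyte pair. Gjc3, whose product Cx29 is found in myelinating cells and is not known for forming typical gap junctions, was at 4.16 FPKM, 22.7-fold below Gja1. Gjb1, the gene of Cx32, which also builds gap junctions within peripheral myelin, was at 0.198 FPKM. Gjc3 exceeded Gjb1 by 21.02-fold, a ratio that fell to 4.31 with 1 FPKM added to both values. Gjc3 held 2.64% and Gjb1 0.126% of the connexin sum. Beside these values, all 10 oligodendrocyte marker genes were at 1 FPKM or more, against 56.4% of protein-coding names, and their median was 27.9 FPKM. The myelin gene Mbp led at 261 FPKM, and the lowest, the transcription factor gene Olig2, was at 5.94 FPKM. Gjc3 and Gjb1 were therefore below every marker of that list.

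Limits of annotation touch this group. The listed transcript of Gjc3 spanned chr5:138395037-138404187 in mm9 and was 4002 nt long. Stretches of at least 75 nt between its bases 2602 and 3143 matched transcripts of 296 other genes at 95% identity or more, and how reads of that stretch were assigned is not known. The listed transcripts of the other members showed no such match, counting all 3 GENCODE M21 transcripts of Panx2, whose listed transcript was not found there. The listed transcript of Gjb1 spanned chrX:98571717-98580968 and was a coding form of 1513 nt.

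Gjd2, the gene of the neuronal connexin Cx36, was at 0.917 FPKM, 103-fold below Gja1, or 49.8-fold with 1 FPKM added to both, and held 0.582% of the connexin sum. Its listed transcript, the only one in GENCODE M21, spanned chr2:113835337-113839355 in mm9 on the minus strand. It overlapped 2 processed transcripts of the plus strand, by 57 and 18 bases, and reads over those few bases cannot be assigned without strand. In hippocampus, Cx36 is best known from GABAergic interneurons. Of 10 interneuron marker genes, 8 were at 1 FPKM or more, against 56.4% of protein-coding names, and the median was 11.1 FPKM. The neuropeptide genes Cck and Sst were at 230 and 109 FPKM, and the transcription factor gene Lhx6 was lowest at 0.444 FPKM. Gjd2 was above 2 of these 10 markers. It was below all 10 pan-neuronal and granule cell markers, whose median was 104.7 FPKM, with Camk2a at 1205 FPKM, Snap25 at 418 FPKM and Tdo2 lowest at 23.5 FPKM. Another connexin gene reported in neurons, Gjc1 (Cx45), was at 0.0369 FPKM, 24.9-fold lower than Gjd2. Both values were under 1 FPKM, so a constant added to both would shrink this ratio strongly.

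The astrocyte connexin genes lay within the range of astrocyte markers. Of 12 such markers, 11 reached 10 FPKM, against 30.8% of protein-coding names, and the median was 57.0 FPKM. The enzyme genes Aldoc and Glul led at 511 and 502 FPKM, and Sox9 was lowest at 0.925 FPKM. Gja1 was above 7 of the 12 and Gjb6 above 6. Gjb2 was above Sox9 alone. The listed transcripts of 2 of the 12, Gfap and Aldh1l1 (picked with their values in view), are noncoding forms of 356 and 400 nt. At 186 and 26.3 FPKM, these 2 genes lay on opposite sides of the list's median. How far such forms shift their values, and through them the median, was not tested. Cx26 is also made by cells of the leptomeninges. Of 10 leptomeningeal and fibroblast markers, 5 were at 1 FPKM or more, against 56.4% of protein-coding names. For protein-coding names the median was 2.46 FPKM, and for these markers it was 1.14 FPKM. The highest were Igf2 at 7.19 FPKM and Dcn, a proteoglycan gene of fibroblasts, at 4.37 FPKM, and Slc47a1 was lowest at 0.0750 FPKM. None of the 10 was listed at 0, and Gjb2 lay above 7 of them. What part of the Gjb2 value came from such cells was not tested. In bulk tissue, fewer cells of a type and less RNA per cell cannot be told apart, and list medians do not measure how many cells of a type were present.

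**Figure D4:**
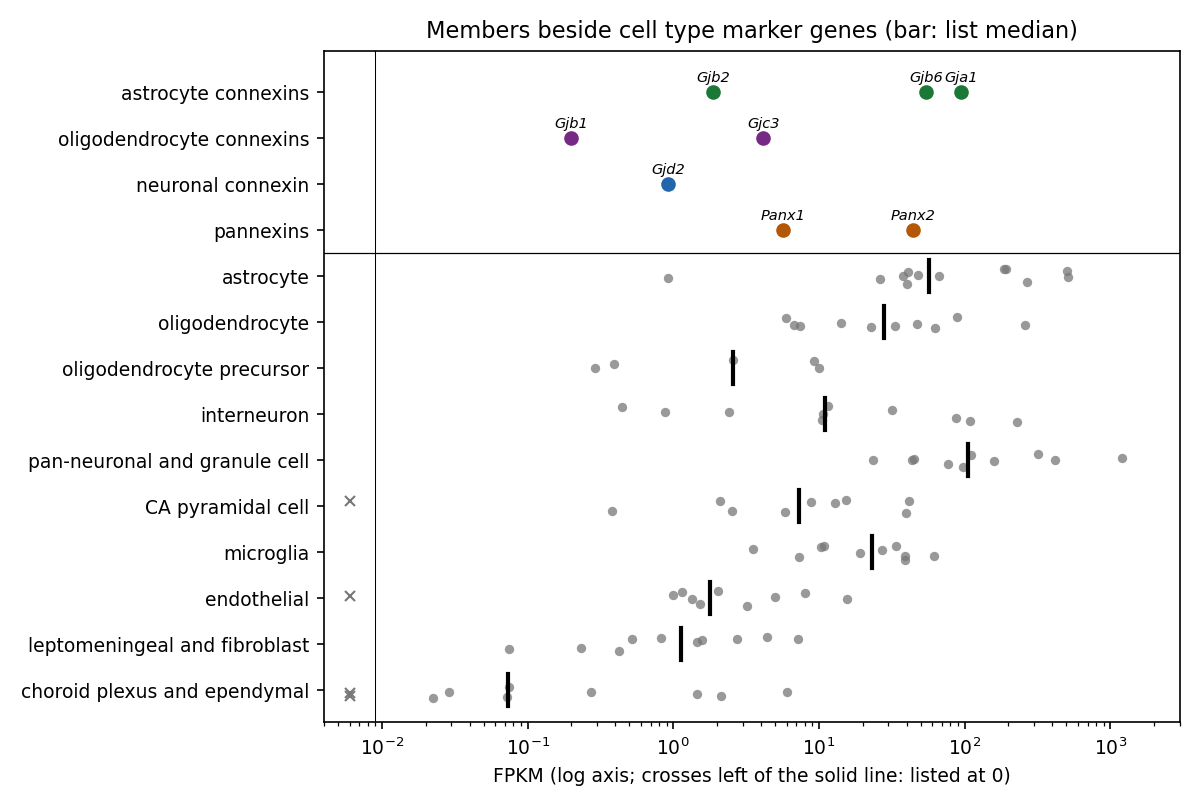
FPKM (log axis) of the 8 genes, in the upper rows by cell type or family, and of the genes of 10 marker lists in the lower rows, 1 point per gene; bars are list medians and crosses are genes listed at 0. Gja1 and Gjb6 lie among the astrocyte markers, Gjc3 and Gjb1 to the left of all oligodendrocyte markers, and Gjd2 to the left of all pan-neuronal and granule cell markers.

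Markers of other cell types stood at different levels, and their counts at 1 FPKM stand beside the 56.4% of protein-coding names that reached it. All 10 microglial markers were at 1 FPKM or more, and their median was 23.1 FPKM, with C1qb at 38.9 FPKM and Aif1 lowest at 3.51 FPKM. Of 10 endothelial markers, 9 were at 1 FPKM or more and the median was 1.78 FPKM, with Ly6c1 at 15.5 FPKM, Cldn5 at 7.96 FPKM and Pecam1 listed at 0. The vascular connexin genes Gja4 and Gja5, both under 1 FPKM and in a ratio of 2.45, were below that median. Oligodendrocyte precursor markers reached 1 FPKM in 3 of 5 cases, close to that share of protein-coding names. Pdgfra was at 10.1 FPKM, Gpr17 at 9.23 FPKM and Sox6 was lowest at 0.291 FPKM. Of 10 markers of CA pyramidal cells, 8 reached 1 FPKM, with Rgs14 at 41.5 FPKM, Cpne4 at 39.5 FPKM and Pou3f1 listed at 0. Choroid plexus and ependymal markers reached 1 FPKM in 3 of 10 cases, below the share of protein-coding names. Kl was at 6.06 FPKM, Ttr at 2.13 FPKM and Kcne2 was listed at 0.

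Both brain pannexin genes were present, and Panx2 was the higher. At 44.0 FPKM, Panx2 exceeded Panx1, at 5.64 FPKM, by 7.81-fold and held 88.7% of the pannexin sum, while Panx3, the pannexin gene of skin and skeleton, was listed at 0. Panx2 stood between the connexin genes, 1.24-fold below Gjb6 and 10.6-fold above Gjc3. In mm9 the listed transcript of Panx2 spanned chr15:88890156-88901337 on the plus strand and that of Panx1 spanned chr9:14809605-14849922 on the minus strand, the latter a coding form of 5732 nt with 5 exons. Among 9 protein-coding names within 100 kb of Panx2, 8 were lower than it and 1 was higher. The higher one was Mlc1, an astrocyte membrane protein gene, at 77.5 FPKM, a gene picked with its value in view. An antisense gene, 1810021B22Rik, lay 288 bases from Panx2 without overlapping it and was at 1.85 FPKM. The product of Panx2 is found largely in intracellular membranes, whereas pannexin 1 channels open at the plasma membrane. Of 5 genes linked to pannexin 1 function, 4 reached 1 FPKM, against 56.4% of protein-coding names. Cflar, a regulator gene of cell death signalling, was at 4.65 FPKM, with a short noncoding listed transcript of 676 nt. The median of this list, 2.78 FPKM, was the value of the ATP-gated channel gene P2rx4, and P2rx7, whose receptor is known to engage pannexin 1, was at 1.62 FPKM (both picked with their values in view).

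Genes of proteins that bind or regulate connexins were set beside the family, as a list chosen with earlier results of these data known. Of 10 such genes, 9 reached 1 FPKM and 6 reached 10 FPKM, levels reached by 56.4% and 30.8% of protein-coding names. Their median was 13.5 FPKM. Dbn1, which encodes the actin-binding protein drebrin, was highest at 171 FPKM, above Gja1. The ubiquitin ligase gene Nedd4 followed at 90.8 FPKM, and Nov, the gene of a secreted matricellular protein reported to bind Cx43, was lowest at 0.467 FPKM. Tjp1, the gene of the scaffold ZO-1, which binds the tails of Cx43 and Cx36, stood at 15.9 FPKM and was picked with its value in view. None of these genes acts on connexins alone.

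Other families also form wide pores that pass ions or small molecules, and 7 genes of them had a value. The volume-regulated anion channel genes Lrrc8a, the obligatory subunit, and Lrrc8b were at 12.8 and 12.6 FPKM. Lrrc8c was at 4.33 FPKM, Lrrc8d at 0.0910 FPKM and Lrrc8e was listed at 0. Of the calcium homeostasis modulator channel genes, Calhm2 was at 1.47 FPKM and Calhm1 was listed at 0. Each of the 7 was below Panx2, Gjb6 and Gja1, and Lrrc8a and Lrrc8b were above Panx1.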

How the data were processed

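Polyadenylated RNA of 3 dentate gyrus libraries was sequenced on an Illumina instrument, per the labels' protocols. TopHat, Cufflinks, mm9 and NCBIM37 are named in the submitters' processing notes, without versions or a strand setting. The authors deposited 1 FPKM column for the whole group, and no source used here says how the libraries were combined. Of 37681 rows, 36469 held a value. Rows with a shared symbol were summed. Products of low values and transcript length gave a main peak and a lower second rise, with no clear series of steps, so read counts were not recovered.

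Genes were described by their FPKM, ratios without a pseudocount, ranks, list counts and list medians, with no test. Members and gene lists were chosen with earlier results of these data known. The text names all members, all genes of the other family and large-pore lists (Calhm3 had no value and is not analysed here), and the 2 highest and the lowest of each other list; genes picked with their values in view are marked, and a few genes under this rule are not reported here. Gene types, transcript forms and lengths came from GENCODE M21 by identifier, starts were made 1-based, and matches used blastn 2.17.0. The ranking and the summing of rows were checked on simulated data. Python 3.11.15, pandas 2.3.3, numpy 2.4.6 and matplotlib 3.10.9 were used.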

Additional observations from a re-analysis of the deposited data

How the results depend on the processing

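Directions of all 5 gene ratios held under every alternative run, an outcome fixed in advance. A constant added to both values cannot reverse a ratio, and each of these genes had a single entry. With 0.1 FPKM added to both values, the ratio of Gjb6 to Gjb2 was 27.6, that of Gjc3 to Gjb1 14.3, that of Gja1 to Gjd2 93.0 and that of Panx2 to Panx1 7.69. With 1 FPKM added they were 19.3, 4.31, 49.8 and 6.78, and the ratio of Gja1 to Gjb6 was 1.71, since an added constant weighs most on low values. A minimum of 10 FPKM left 3 of the 8 genes, and a minimum of 0.1 FPKM added 2 of the other 15. After scaling all names to a sum of 1000000, with or without mitochondrially encoded names, 1 of the 15, Gja4, reached the minimum of 1, as did Gjd2. Restricted to genes at 1 FPKM or more, the share held by the 8 genes was 100% by construction. Taking the highest entry of a shared symbol changed none of these values, also by construction, since each family gene had a single entry. Leaving out a library was not run, since the deposited values are not split by library.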
